A study of Hypholoma fasciculare and Trametes versicolor and Trametes versicolor
Hypholoma fasciculare with 9 samples.

Results

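The genes of the wood-decay fungus Hypholoma fasciculare were compared between 2 sets of 3 sequencing libraries from colonised beechwood blocks. They are the 17911 of 32207 features in the deposited count table whose ID starts with H_, and the other 14296 start with T_ and stand for Trametes versicolor. Of the H_ features, 7763 had a read in the 6 libraries compared. The first set comes from 3 count columns that name H. fasciculare, called the Hypholoma-named libraries here. No label is tied to these columns by name. The labels leave for them only blocks colonised by H. fasciculare strain GTWV2 as a single-species control. Their column names, in contrast, say interaction. The second set, the interaction libraries, comes from blocks in which strain GTWV2 met T. versicolor strain TvFPH, taken 14 h after contact. A further 3 libraries of strain TvFPH as a single-species control, the T. versicolor controls, gave the background. All blocks were beech, and each group is 1 strain. Nothing in the labels tells if the replicates of a group were grown apart. The p-values therefore reflect the spread among these libraries only, and that spread may be technical.

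H. fasciculare, the sulphur tuft, is a basidiomycete that spreads through soil as mycelial cords, bundles of hyphae that link pieces of wood. T. versicolor is a white-rot basidiomycete that colonises dead hardwood. When 2 such mycelia meet they compete for the wood, and combat between wood-decay fungi is known for secreted oxidases, secondary metabolites and enzymes that attack the opponent's cell wall. No gene names accompany the IDs, so no feature could be assigned to any of these functions. Features are given by ID or by their length in bases, and no sequence or coordinate is printed.

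The first question was whose RNA each library held. Nearly every read in all 9 libraries fell on 11 abundant T_ features, 150 to 624 bases long. They were the T_ features with 200 reads or more in each of the 6 interaction and T. versicolor control libraries. These took 99.7%, 99.8% and 99.7% of the reads even in Hypholoma-named replicates 1, 2 and 3. Of all reads, H_ features held 0.260%, 0.210% and 0.293% in Hypholoma-named replicates 1, 2 and 3. They held 0.129%, 0.197% and 0.151% in interaction replicates 1, 2 and 3, and 0.00628%, 0.00628% and 0.00677% in the T. versicolor controls. The groups did not overlap, but Hypholoma-named replicate 2 and interaction replicate 2 lay close. Outside the 11 features, a measure not set in advance, the 3 groups lay further apart. H_ features held 97.6%, 94.9% and 98.5% of the remaining reads in the Hypholoma-named libraries, and 60.1%, 30.9% and 66.9% in the interaction libraries. They held 2.10%, 1.73% and 1.5% in the T. versicolor controls. The means were 97.0% ± 1.83, 52.6% ± 19.1 and 1.78% ± 0.300 (SD, n = 3 each), and no 2 groups overlapped (two-sided exact permutation p = 0.1 for each pair, which no 3 against 3 comparison can go below). The widest 95% Wilson interval of a single library was 59.1% to 61.2%, for interaction replicate 1. These intervals cover counting error only. As bulk libraries they cannot tell fewer cells of a fungus apart from less RNA per cell.

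The same order was seen in 2 of the 11 abundant T_ features. The feature of 156 bases took 2.68%, 3.71% and 3.01% of T_ reads in the T. versicolor controls. It took 0.481%, 0.197% and 0.117% in the interaction libraries. In Hypholoma-named replicates 1, 2 and 3 it took 0.00846%, 0.00754% and 0.000976%. T_gene_14119, 1 of 2 abundant features of 168 bases, went from 0.249%, 0.219% and 0.275% in the controls to 0.0244%, 0.0375% and 0.0161% in the interaction and to 0.00127%, 0.000701% and 0.00274% in the Hypholoma-named libraries. The mean share of these 2 features was 553-fold and 158-fold higher in the T. versicolor controls than in the Hypholoma-named libraries, while that of the other 9 was 0.494-fold to 1.42-fold. Of those 9, 6 overlapped between these groups, 2 were lower in all 3 controls and 1 was higher in all 3.

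**Figure D1:**
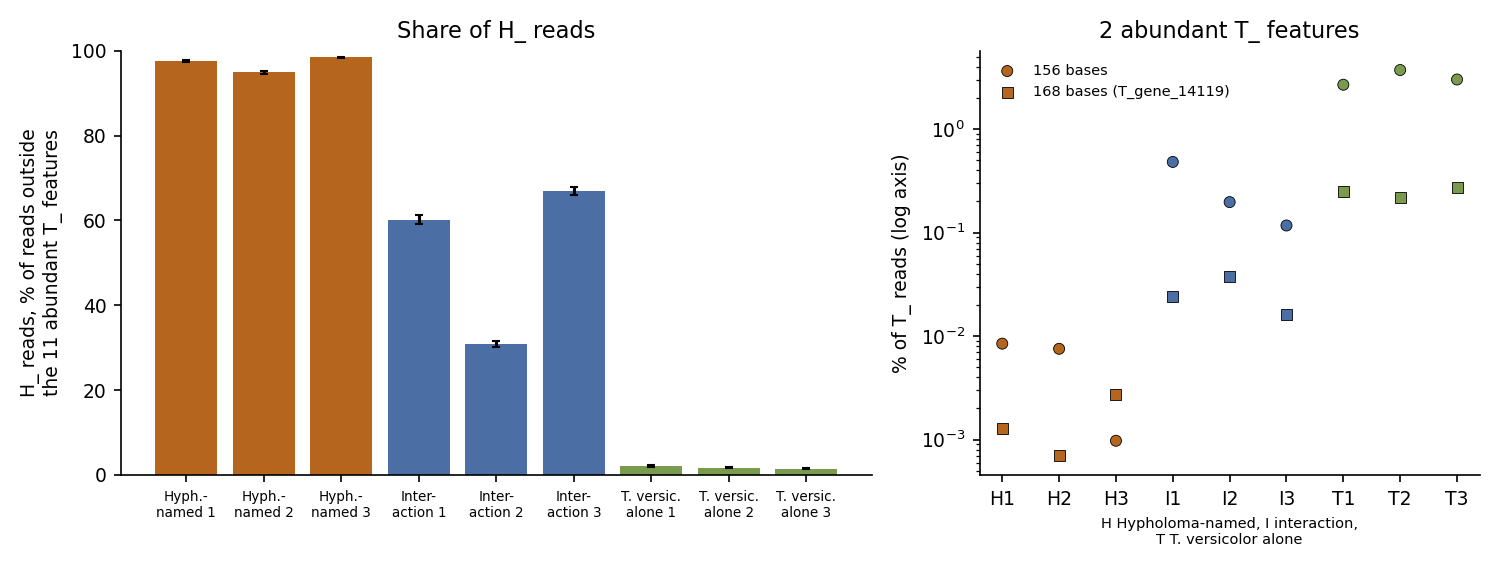
Left, share of H_ reads among reads outside the 11 abundant T_ features in each of the 9 libraries (bars, percent, with 95% Wilson intervals). Right, share of T_ reads on the abundant feature of 156 bases and on T_gene_14119, of 168 bases (log axis, percent). The Hypholoma-named libraries lie between 94.9% and 98.5% on the left and lowest on the right, with the interaction libraries between them and the T. versicolor controls.

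These shares bear on the disagreement between label and column name. T_ reads made up 2.41%, 5.06% and 1.55% of the reads outside the abundant features in Hypholoma-named replicates 1, 2 and 3, against 39.9%, 69.1% and 33.1% in the interaction libraries. The T. versicolor controls held 1.5% to 2.10% of reads of the other prefix. Of the 62 T_ features with 10 reads or more in every T. versicolor control, 7, 4 and 9 had a read in the Hypholoma-named libraries and 44, 41 and 38 in the interaction libraries. The shares fit the label, H. fasciculare alone, in that little T. versicolor RNA was measured. They do not settle the column name, since a block of H. fasciculare taken from the other side of a contact could also hold little RNA of its opponent. Each comparison below can be read as contact against H. fasciculare alone (the labels), or as contact blocks with much T. versicolor RNA against contact blocks with little (the column names). The values are the same under both readings.

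The depth on H_ features was small. Hypholoma-named replicates 1, 2 and 3 held 16379, 13831 and 28290 H_ reads over 4298, 3609 and 3148 features. Interaction replicates 1, 2 and 3 held 5018, 6920 and 6764 H_ reads over 1142, 1640 and 2018 features. Levels are given as CPM, a count scaled to the library's total of H_ reads. A single read was worth 35.3 to 72.3 CPM in the Hypholoma-named libraries and 145 to 199 CPM in the interaction libraries. The T. versicolor controls held 364, 356 and 500 H_ reads, on 509 features. At the controls' rate per T_ read, reads of this kind would make up 2.20% to 3.07% of the H_ reads in the Hypholoma-named libraries and 3.28% to 5.01% in the interaction libraries. At the controls' rate per T_ read outside the 11 abundant features, they would make up 0.0273% to 0.0928% and 0.864% to 3.90%.

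Many H_ features were seen in a single library of a group. Of 6665 features with a read in a Hypholoma-named library, 1176 had one in all 3, and 60 had 10 reads or more in each. Of 3752 features with a read in an interaction library, 185 had one in all 3, and 26 had 10 reads or more in each. The groups shared 2654 features, which is 39.8% of the first list and 70.7% of the second. In all, 21 features reached 10 reads in every one of the 6 libraries. These held 23.1%, 35.7% and 18% of H_ reads in Hypholoma-named replicates 1, 2 and 3. They held 31.9%, 13.4% and 23.3% in interaction replicates 1, 2 and 3.

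Of 1176 features read in all 3 Hypholoma-named libraries, 339 had no read in the interaction. These were mostly thin, with a median of 8 reads over the 3 libraries. The highest had 1, 5 and 216 reads. If its 3 interaction libraries are taken to hold up to 3 reads in all, it was at least 23.7-fold lower there, a bound that covers counting error only and rests on replicate 3. Of the 60 that reached 10 reads in each Hypholoma-named library, 59, 45 and 58 had a read in interaction replicates 1, 2 and 3, and every one had a read in at least 1 of them.

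The reverse set was small and its members were also read in T. versicolor. Of the 185 features read in all 3 interaction libraries, 9 had no read in any Hypholoma-named library, and 8 of these 9 had a read in a T. versicolor control. For comparison, 73 of all 185 had one, or 39.5%, and 124 of the 1176 features read in all 3 Hypholoma-named libraries, or 10.5%. The deepest of the 9, of 2590 bases, had 10, 5 and 12 reads in the interaction and 10, 3 and 17 in the T. versicolor controls. Taking up to 3 reads over the Hypholoma-named libraries, it was at least 28.2-fold higher in the interaction, by counting error only. Scaled to T_ reads instead, its levels overlapped, at 2.23 ± 0.698 CPM of T_ reads in the interaction libraries and 1.52 ± 0.904 in the T. versicolor controls (SD, n = 3). Scaled to T_ reads outside the 11 abundant features they overlapped too, with a mean 5.50-fold higher in the interaction. Whether these reads came from H. fasciculare or from T. versicolor cannot be told apart here.

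Relative to length, the same 3 of the 81 features tested below had the highest means in both groups. A feature of 469 bases had the highest mean, at 131598 ± 146972 CPM per kilobase in the Hypholoma-named libraries and 54975 ± 60199 in the interaction (SD, n = 3 each). Its reads came to 621, 1928 and 222 in the former and 286, 14 and 124 in the latter, so the groups overlapped widely. H_gene_8265, of 1424 bases, had the next mean, at 54355 ± 16469 and 27774 ± 21517 CPM per kilobase (SD, n = 3 each). Its reads numbered 1466, 1277 and 1425 in the Hypholoma-named libraries, or 8.95%, 9.23% and 5.04% of H_ reads. In the interaction they numbered 341, 49 and 295, or 6.80%, 0.708% and 4.36%. Replicate 2 was far below the others, and the groups overlapped. Its fitted log2 fold change, interaction over Hypholoma-named, was -1.48 ± 0.79 (SE; adjusted p = 0.520 by edgeR). The order of these 2 features did not hold in every library. Per kilobase, H_gene_8265 was above the feature of 469 bases in Hypholoma-named replicate 3 and interaction replicate 2, and without Hypholoma-named replicate 2 their means were 49114 and 48787 CPM per kilobase.

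H_gene_10211, of 1479 bases, was the only feature at 1% or more of H_ reads in all 6 libraries. It took 1.77%, 2.08% and 3.47% of H_ reads in the Hypholoma-named libraries and 4.07%, 1.53% and 3.37% in the interaction. The groups overlapped, at 2.44% ± 0.903 and 2.99% ± 1.31 (SD, n = 3 each; two-sided exact permutation p = 0.7, where 0.1 is the lowest that can be reached). Its log2 fold change was -0.03 ± 0.69 (SE; adjusted p = 0.985 by edgeR). A feature of 2037 bases had 110, 135 and 83 reads in the Hypholoma-named libraries and 114, 67 and 130 in the interaction. Its CPM was 6470 ± 3420 against 17207 ± 6747 (SD, n = 3 each), with interaction replicate 2 inside the range of the other group. Its log2 fold change of 1.05 ± 0.70 (SE) did not pass the test (edgeR adjusted p = 0.607).

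**Figure D2:**
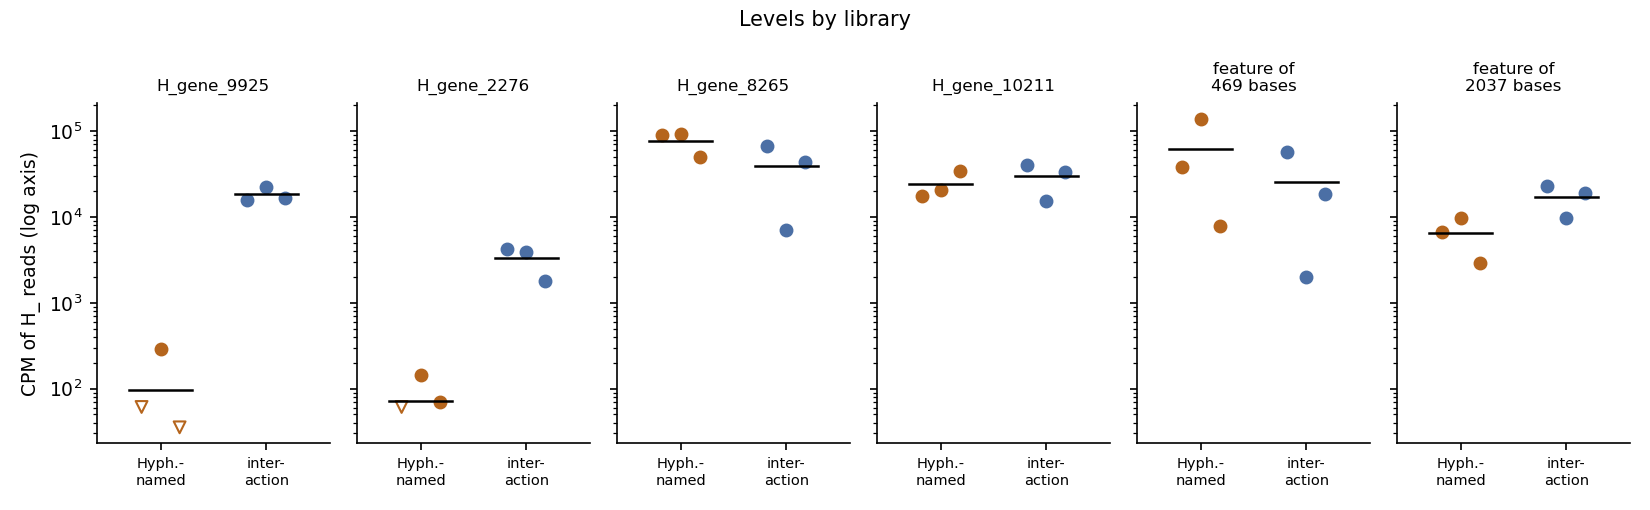
CPM of H_ reads (log axis) in each library for 6 H_ features, with bars at the group mean; open triangles mark libraries with no read, drawn at the value of 1 read. H_gene_9925 and H_gene_2276 are higher in all 3 interaction libraries, and the groups of the other 4 features overlap.

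Of 81 H_ features deep enough to test, 2 rose in the interaction and none fell (quasi-likelihood test of edgeR, p adjusted by Benjamini-Hochberg, threshold 0.05). This is 2.47% of those tested for rises and 0.0% for falls, and 7 of the 81 (8.64%) had an unadjusted p under 0.05. DESeq2 called 0 of 7752, with 80 (1.03%) at an unadjusted p under 0.05. The filter asked for 964 CPM in any 3 libraries and left 17830 H_ features untested. The biological coefficient of variation was 0.789, so only large differences could pass. Both called features entered the test only through the group in which they were high. Without the filter neither was called (adjusted p = 0.529 for each by edgeR), and 0 of 7763 features were, with 142 at an unadjusted p under 0.05. Over the 81 the median log2 fold change was -0.41, and it ranged from -0.82 to -0.10 over TMMwsp scaling, TMM, DESeq2 size factors and no composition factor.

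H_gene_9925, of 3809 bases, rose. It had 0, 4 and 0 reads in Hypholoma-named replicates 1, 2 and 3 and 80, 155 and 112 in interaction replicates 1, 2 and 3, which puts every interaction library far above the others. Its level went from 96.4 ± 167 to 18300 ± 3563 CPM (SD, n = 3 each). The log2 fold change was 7.53 ± 1.33 (SE; adjusted p = 0.00262 by edgeR). It passed the filter through the interaction libraries alone. Without the filter its adjusted p was 0.529 by edgeR (log2 fold change 6.60), and by DESeq2 it was 0.0628 (6.60). Leaving out Hypholoma-named replicate 3 or interaction replicate 2, which stand apart from their groups, ended the call (log2 fold change 6.79 and 6.97, edgeR adjusted p = 0.0643 and 0.0911). Leaving out both did not (6.25, edgeR adjusted p = 0.0185).

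H_gene_9925 was also read in the T. versicolor controls. The 3 controls had 26, 9 and 13 reads on it, more than the 4 reads of all Hypholoma-named libraries. Scaled to T_ reads, this was 30.0 ± 12.5 CPM in the interaction against 2.61 ± 1.63 CPM in T. versicolor (SD, n = 3), an 11.5-fold difference. Each of the 3 interaction libraries was above every control (two-sided exact permutation p = 0.1, the lowest that can be reached). Scaled to the T_ reads outside the 11 abundant features, the difference was 28.4-fold, again without overlap. At the controls' rate per T_ read, 30.2 of its 347 interaction reads, or 8.70%, would be background, and 15.2 reads, or 4.38%, at their rate per T_ read outside the abundant features. The feature was thus higher in the interaction than in the Hypholoma-named libraries per H_ read, and than in the controls per T_ read. The second difference does not single it out, since the controls held few H_ reads at all. An H_ feature of 1848 bases, with a log2 fold change of 0.29, was also 3.52-fold and 11.9-fold above the controls on these 2 scales of T_ reads, without overlap. Which fungus the reads of H_gene_9925 came from cannot be told apart.

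H_gene_2276, of 1492 bases, showed the same pattern at a lower level. It had 0, 2 and 2 reads in the Hypholoma-named libraries, 21, 27 and 12 in the interaction and 6, 10 and 5 in the T. versicolor controls. Its level was 71.8 ± 72.3 CPM and 3287 ± 1318 CPM (SD, n = 3). The rise was 5.28 ± 1.12 on the log2 scale (SE; adjusted p = 0.00911 by edgeR). It too passed the filter through the interaction libraries alone. Scaled to T_ reads it stood at 1.16 ± 0.555 CPM in the T. versicolor controls and 5.26 ± 2.51 CPM in the interaction libraries (SD, n = 3), again without overlap. The predicted background was 22% of its interaction reads per T_ read and 11.1% per T_ read outside the abundant features. Both are above the limit of 10% set for naming a feature, and it is named as the second of 2 calls after its values were seen. It lost its call without Hypholoma-named replicate 3, without interaction replicate 2 and without both (edgeR adjusted p = 0.0749, 0.0911 and 0.0752), at log2 fold changes of 5.16, 4.87 and 4.67. Leaving out Hypholoma-named replicate 1 or 2 or interaction replicate 3 also ended it (edgeR adjusted p = 0.213, 0.0726 and 0.101), at 4.79, 6.20 and 5.19.

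Among the 81, the features also read in the T. versicolor controls had higher log2 fold changes. The 11 with 10 reads or more over the T. versicolor controls had a median log2 fold change of 0.72, and 8 of the 11 were above 0. The 28 with 1 to 9 such reads had a median of -0.17, and 13 were above 0. The 42 with none had a median of -0.94, and 11 were above 0. The class with no such reads took 17.9% of H_ reads in Hypholoma-named replicate 3, against 4.72% and 6.80% in replicates 1 and 2. Without replicate 3, the 24 of its 42 features that could be fitted had a median of -0.42, in place of -0.61 for the same 24 with it. The class with 10 reads or more then had a median of 0.99, and that with 1 to 9 reads 0.06 over 21 features. Without interaction replicate 2 the medians were 0.63, -0.08 and -0.48 for 10 reads or more, 1 to 9 and none. The classes lay closest without both of these libraries, at 0.38, 0.14 and -0.17 over 11, 25 and 37 features. In the main fit the same features had medians of 0.72, -0.32 and -0.94. Both calls came from the class with 10 reads or more. All 20 H_ features with 10 reads or more in the controls were also left out before filtering anew, a choice made after seeing the data that removes both calls by construction. Of the 58 features then tested edgeR called 0, with 3 at an unadjusted p under 0.05. The part that T. versicolor reads play in these values was not tested.

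**Figure D3:**
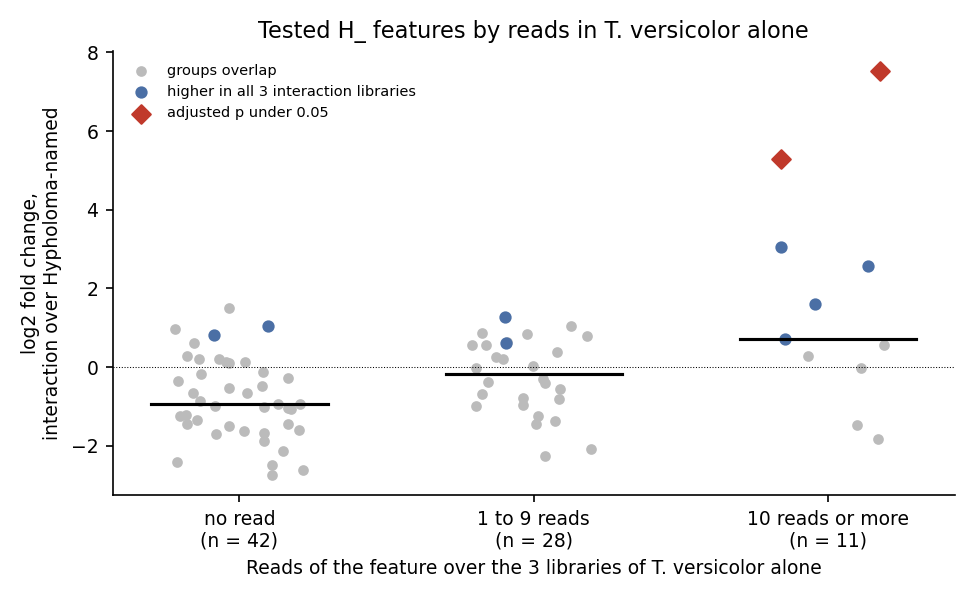
Log2 fold change, interaction over Hypholoma-named, of the 81 tested H_ features, grouped by their reads over the 3 T. versicolor controls; bars are medians (-0.94, -0.17 and 0.72). The 2 features that passed the test are in the class with 10 reads or more.

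In 10 of the 81 features all 3 interaction libraries were above all 3 Hypholoma-named ones in CPM (12.3%), and in none were they all below. The filter bears on these counts. Of the 81, 8 reached its 964 CPM in all 3 interaction libraries but not in all 3 Hypholoma-named ones, and 9 the reverse. Features of the first kind, among them the 2 calls and the feature of 671 bases below, entered through the group in which they were high. CPM carries no composition factor, unlike the fitted log2 fold changes. Without that factor the median log2 fold change over the 81 was -0.10, against -0.41 with TMM, so CPM leans more to the interaction. The 10 held, beside the 2 calls, 8 features with log2 fold changes of 0.60 to 3.05 (edgeR adjusted p = 0.368 to 0.790). Of the 10, 6 had 10 reads or more in the T. versicolor controls. The highest of the 8, of 671 bases, had 25, 7 and 17 reads against 13, 107 and 12, and a log2 fold change of 3.05 ± 1.21 (SE; adjusted p = 0.460 by edgeR). The next, of 1243 bases, had 42, 19 and 87 reads against 32, 175 and 47, at 2.57 ± 0.93 (SE; adjusted p = 0.368 by edgeR). In both, interaction replicate 2 was far above the other libraries, and without it the log2 fold changes were 0.69 and 1.08. Their controls held 4, 12 and 8 reads and 4, 13 and 7 reads. Among features with no read in the controls, 2 of the 42 were higher without overlap. The deeper of these, of 1114 bases, had 35, 29 and 52 reads against 20, 21 and 40 (log2 fold change 0.81 ± 0.96, SE; adjusted p = 0.758 by edgeR).

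At the other end, 3 features had the lowest unadjusted p among those below 0, and none passed the test (edgeR adjusted p = 0.462 for each). They were 577, 1268 and 2621 bases long and had no read in the T. versicolor controls. The first had 28, 13 and 519 reads in the Hypholoma-named libraries and 10, 2 and 11 in the interaction. The second had 21, 37 and 588 against 5, 11 and 10, and the third 25, 14 and 129 against 1, 0 and 10. In each, Hypholoma-named replicate 3 was far above replicates 1 and 2. Their log2 fold changes of -2.75, -2.62 and -2.40 became -0.58, -0.73 and -1.60 without that library.

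Replicate 3 stood apart across the Hypholoma-named libraries. Over 153 features with 50 reads or more in the 6 libraries, replicates 1 and 2 correlated at r = 0.83 on the scale of log2(CPM + 100), and replicate 3 correlated with them at 0.33 and 0.35. These values are across features, which are not independent replicates, and carry no p. The 153 were picked by reads summed without scaling. Replicate 3 had the most H_ reads of the 6 libraries, 28290, so features high in it entered more readily. Replicates 1 and 2 were closer to interaction replicates 1 and 3, at 0.62 to 0.69, than to their own replicate 3. There were 524 features with 10 reads or more in a Hypholoma-named library, and 153, 106 and 451 features reached this in replicates 1, 2 and 3. Replicate 3 was the deepest of these libraries, so features entered the list mainly through it. Of the 524, 143 were over 4-fold higher in replicate 3 than in both others. These held 31.9% of its H_ reads, against 2.96% and 3.35% in replicates 1 and 2. By contrast 19 and 5 features stood over 4-fold above the others in replicates 1 and 2. Of the 81 tested features, 14 were of this kind, with a median log2 fold change of -1.48. Being chosen for a high Hypholoma-named library, they lean below 0 by that choice.

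Replicate 2 stood apart in the interaction. It correlated with interaction replicates 1 and 3 at 0.36 and 0.48, which correlated with each other at 0.62. It held 61 features with 10 reads or more that had no read in interaction replicates 1 and 3, against 4 and 3 such features in those libraries. These 61 took 13.1% of its H_ reads. Of the 61, 40 had a read in a Hypholoma-named library and 0 in a T. versicolor control. In turn, 16 of the 81 tested features had no read in replicate 2, against 1 and 2 in replicates 1 and 3. It was also the library with the smallest share of H_ reads outside the abundant features, 30.9%. Without both libraries that stand apart the count of features higher without overlap went from 10 to 35 of 81 and that of lower ones from 0 to 6, in groups of 2 against 2 that are easier to separate.

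**Figure D4:**
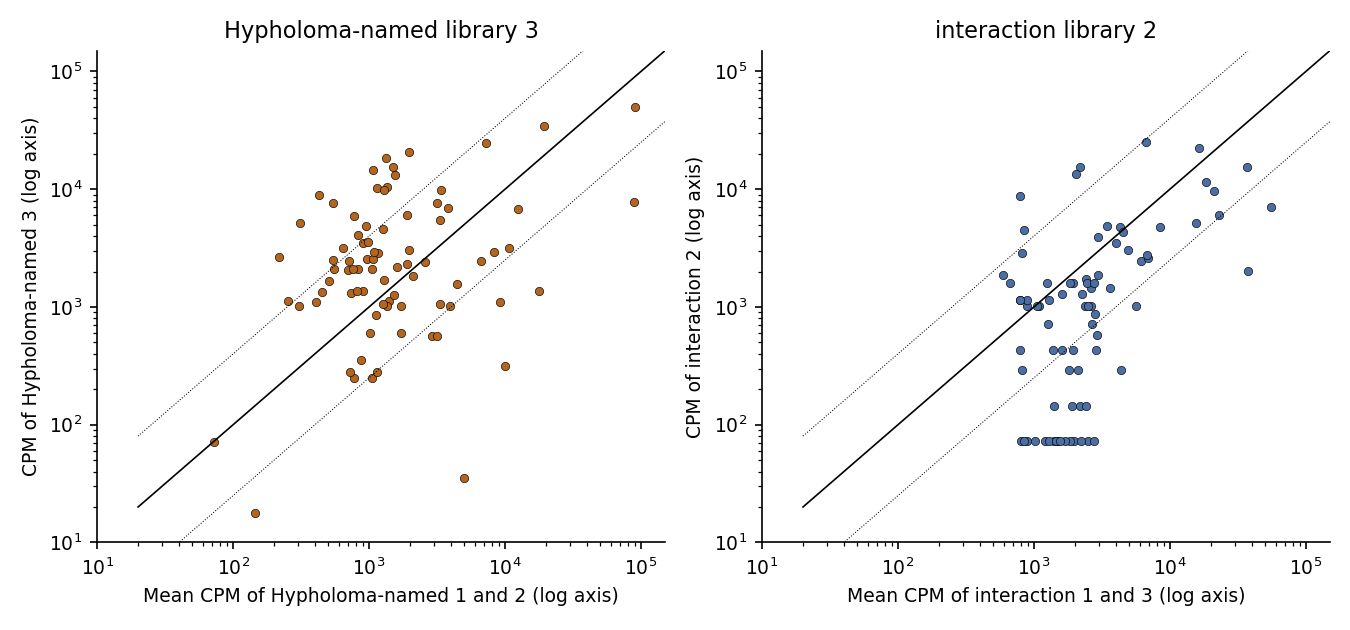
CPM of H_ reads (log axes) of the 81 tested features in Hypholoma-named replicate 3 and interaction replicate 2, against the mean of the other 2 libraries of the group; the solid line marks equality, dotted lines 4-fold differences, and features with no read are drawn at 0.5 of the value of a read. Points lie above the upper dotted line on the left, and a row of 16 features with no read lies at the bottom on the right.

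**Figure D5:**
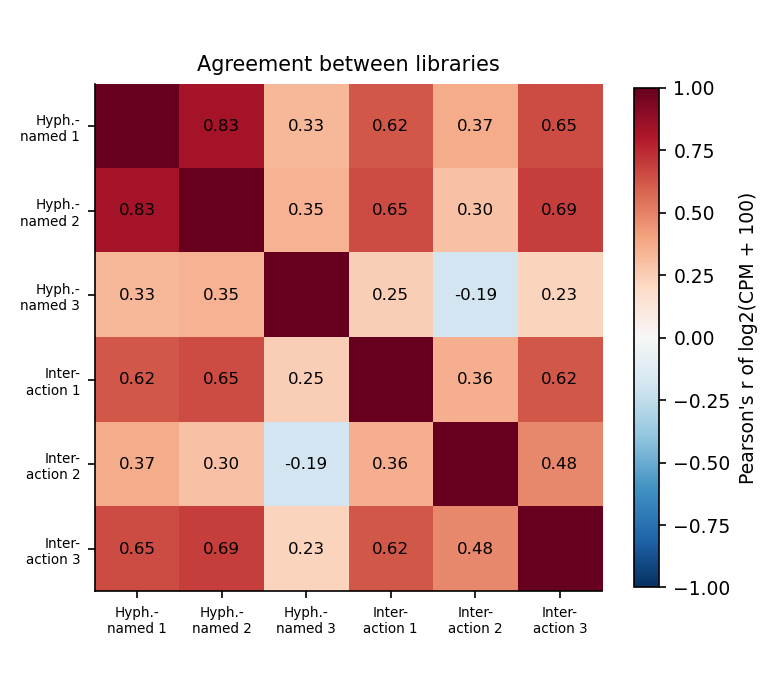
Pearson's r of log2(CPM + 100) over 153 H_ features for each pair of the 6 libraries. The highest value, 0.83, is between Hypholoma-named replicates 1 and 2, and the lowest, -0.19, between Hypholoma-named replicate 3 and interaction replicate 2.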

How the data were processed

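Per the labels' protocols, poly(A) RNA from beechwood blocks was made into libraries with a SMARTer kit. The authors deposited 1 table of read counts per feature, whole numbers and not normalized, with FPKM values beside them. Of tools, the submitters' processing notes list HISAT2, HTSeq, edgeR and cutadapt 1.2.1, with no role for any. Not given in the sources used here: genome builds, settings, strand, and how reads matching both genomes were handled. The deposited FPKM served only to recover feature lengths; 3 FPKM columns were not used.

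The test of H_ features was that of edgeR 4.0.16 under R 4.3.3, with library size as the sum over H_ features, filterByExpr, TMM, robust quasi-likelihood F test, Benjamini-Hochberg adjustment, threshold 0.05. Standard errors are the log2 fold change over the square root of F. The fit was also run on simulated counts with known changes. That outcome is not reported here and is not used as evidence for the fit. Alternatives included DESeq2 1.42.0. Figures used matplotlib 3.10.9.

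A feature was to be named, up to 2 each way, with adjusted p under 0.05, no overlap, a predicted background under 10% and 10 reads in each interaction library (rises) or 2000 CPM in the Hypholoma-named libraries (falls); 1 rise and no fall met this. Other features were named after their values were seen. Members and lists were chosen with earlier results of these data known. The gene lists set for wood decay were not applied, since IDs carry no names.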

Additional observations from a re-analysis of the deposited data

How the results depend on the processing

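Against 2 calls of 81 features by edgeR, both rises, no low-count filter gave 0 of 7763 (142 at unadjusted p under 0.05) and DESeq2 0 of 7752 (80 at unadjusted p under 0.05). Leaving out features with a predicted background of 10% or more gave 1 of 75, and leaving out those with 10 reads or more in the T. versicolor controls 0 of 58 (edgeR, 3 at unadjusted p under 0.05). By construction the first limit drops H_gene_2276 (22%) and keeps H_gene_9925 (8.70%), and the second drops both. With any 1 of the 6 libraries left out, edgeR made 0 to 2 calls, and 0 without Hypholoma-named replicate 3 or interaction replicate 2 (9 and 7 at unadjusted p under 0.05). No fit called a fall. DESeq2 size factors, no composition factor, TMMwsp, a filter of 10 reads in 3 libraries, thinning to the smallest H_ total (34 tested), a fold threshold of 1.5 and leaving out the abundant H_ feature each called the same 2. Libraries of the same number did not deviate together (r = -0.15, -0.01 and 0.08), so numbers were not taken as pairs; the replicate block also called 2. Without both libraries that stand apart 2 of 86 were called, and just H_gene_9925 is shared; the other is the feature of 2590 bases, read in the T. versicolor controls. H_gene_9925 kept its direction in 18 alternatives, 6.25 to 11.04 on the log2 scale, past the threshold in 14 (adjusted p up to 0.529). H_gene_2276 kept its own in 17, 4.29 to 6.20, past it in 9 (adjusted p up to 0.946). Both were picked from these libraries, so this adds little. The count higher without overlap, 10, was 15 without Hypholoma-named replicate 3, 18 without interaction replicate 2 and 35 without both libraries that stand apart; the lower count, 0, was 1 and 6, and 4 without Hypholoma-named replicate 3. The excess of the H_ share in Hypholoma-named over interaction libraries, 0.0953 percentage points of all reads, was 0.0760 to 0.117 without 1 library. The share on abundant H_ features differed by -0.549 points, Hypholoma-named minus interaction (-1.28 to -0.0111 without 1 library), and by 2.78 points with a limit of 0.5% in place of 1%. The causes were not tested. TMMwsp, the limit on reads in the controls, the removal of both libraries and the counts without overlap when libraries are left out were chosen after seeing the data. The H_ share outside the 11 abundant T_ features and the counts without overlap in all 6 libraries were not set in advance either. The fits rest on as few as 5018 H_ reads a library, so a feature absent from 1 library could still stand at up to 598 CPM by counting error alone.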

Other observations

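T_ features outside the 11 abundant ones held 404, 737 and 444 reads in Hypholoma-named replicates 1, 2 and 3, over 190, 213 and 226 features. Just 6 of these features had 50 reads or more over the 3 libraries, and together they took 32.4%, 53.7% and 26.4% of such reads. A T_ feature of 1786 bases had 37, 193 and 2 reads in the Hypholoma-named libraries, 18, 3 and 4 in the interaction and 0, 0 and 2 in the T. versicolor controls, so its reads were mainly those of Hypholoma-named replicate 2. A T_ feature of 3226 bases was read in all 9 libraries, with 33, 49 and 32 in the Hypholoma-named ones, 33, 18 and 38 in the interaction and 38, 35 and 33 in the controls.

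On the H_ side, a feature of 1848 bases was the only one with 10 reads or more in every T. versicolor control, at 38, 42 and 52 reads. It had 201, 177 and 192 reads in the Hypholoma-named libraries and 88, 79 and 129 in the interaction. The log2 fold change of 0.29 ± 0.63 (SE) did not pass the test (adjusted p = 0.835 by edgeR).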
